A study of Homo sapiens with 13 samples.

Results

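Replication-dependent histone genes make the bulk of the histone protein that packages newly copied DNA. They were taken from the gene count table of HuT78 cells as every protein-coding gene whose symbol starts with HIST1H to HIST4H, which gave 72 of the 45744 genes listed. These were 6 genes of the linker histone H1 and 18 H2A, 18 H2B, 15 H3 and 15 H4 genes of the core histones. The 72 rows carry 71 symbols, because HIST2H2AA3 is listed under 2 identifiers. By their symbols, 55 belong to the HIST1 cluster on chromosome 6, 13 rows to HIST2 and 3 to HIST3, both on chromosome 1, and 1 is HIST4H4 on chromosome 12.

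H2A, H2B, H3 and H4 form the octamer around which DNA is wrapped, and H1 binds where the DNA enters and leaves it. Most of these genes are transcribed in S phase, and their mRNAs end in a conserved stem-loop bound by the stem-loop binding protein SLBP instead of a poly(A) tail. When DNA synthesis stops, the mRNAs are degraded, so their levels are widely read as a sign of replicating cells. Some members, HIST1H1C, HIST1H2BD and HIST1H2BK among them, are known to give polyadenylated transcripts as well.

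HuT78 is an established T cell line from a person with Sézary syndrome, a leukemic form of cutaneous T cell lymphoma. All cultures were kept for 72 h with 10 nM chaetocin (4 libraries), 10 nM F5446 (3 libraries, numbered 2 to 4), 1 µM romidepsin (4 libraries) or the vehicle DMSO (2 libraries, numbered 1 and 4). Chaetocin is a fungal inhibitor of SUV39H1-type histone methyltransferases, F5446 is a code-named SUV39H1 inhibitor, and romidepsin is a histone deacetylase inhibitor used against this lymphoma. Libraries were made from total RNA with the Ovation Human FFPE kit. The study has 1 cell line, and nothing in the labels ties the replicates to separate cultures, so the p-values measure the spread between these libraries, which may be technical.

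Libraries held 19901052 to 30816188 counts. Of 12 T cell markers, 10 averaged at least 1 CPM (counts scaled to 1000000 per library), with summed levels of 1100 to 1660 CPM per library. The B cell list summed to 40.7 to 93.0 CPM (3 of 6 at 1 CPM or more: MS4A1, CD79A and CD79B). The fibroblast list summed to 29.3 to 54.3 CPM (3 of 7: COL1A1, COL3A1 and PDGFRB). The keratinocyte list summed to 70.1 to 135 CPM (3 of 6: KRT5, KRT10 and TP63), with DSG3 at 0. The myeloid list summed to 1.55 to 4.88 CPM (1 of 8: ITGAM), with CD68 and S100A8 at 0. Chaetocin replicate 3 stood apart from the other 12 libraries: mitochondrially encoded genes took 15.9% of its counts against 5.22% to 12.7% elsewhere, and several results below are given with and without it. Its TMM scaling factor was 0.859, against 0.990 to 1.04 elsewhere. All CPM here are TMM-scaled, so those of chaetocin replicate 3 lie above its counts per 1000000 of the library total.

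The stem-loop was looked for in the annotated transcripts (GENCODE v29) as a 6-base stem closing a 4-base loop within 150 bases of the stop codon, with GG at the 5′ end of the stem, TTT opening the loop and pairs of G with T allowed. It was found for 31 of the 71 symbols, starting 23 to 68 bases after the stop codon (median 37). Only 35 symbols have a transcript with at least 50 annotated bases there, so no match says little about a gene. None was found in the annotated H1 transcripts. Of 7 matches in H2A genes, 6 read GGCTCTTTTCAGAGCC, which was also the form in 8 of 11 H2B genes and 3 of 5 H3 genes. HIST1H2BC, HIST1H2BD and HIST1H2BF shared the form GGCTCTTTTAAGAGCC, found also in 2 H3 genes. H4 genes had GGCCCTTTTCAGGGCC in 5 and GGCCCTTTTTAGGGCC in 3. The examples below are shown because the levels of these genes carry the results, with the stem-loop in capitals, 5′ to 3′ as DNA letters.
HIST1H2AG: ccaacGGCTCTTTTCAGGGCCacccacgtc
HIST2H2BE: ccaaaGGCTCTTTTCAGAGCCacccaccta
HIST1H2BC: ccaaaGGCTCTTTTAAGAGCCacccagata
HIST1H2BD: ccaaaGGCTCTTTTAAGAGCCacgcatgtt
HIST1H3H: ccaaaGGCTCTTTTCAGAGCCacccacatg
HIST1H4E: tcaaaGGCCCTTTTCAGGGCCgcccacagt
HIST4H4: caaaaGGCCCTTTTCAGGGCCcccaaactg

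Promoters differed between the families in what their letters hold. Motifs were searched in the whole RefSeq promoter sequence of each gene. The octamer ATTTGCAT (either strand), the site known for OCT1, was present in 11 of 14 H2A and 12 of 16 H2B genes. It was present in 1 of 10 H3 genes and in 0 of 6 H1 and 0 of 11 H4 genes. Among all 27305 genes with a promoter in the table the share was 2.19%. CCAAT stood in every H1, H2A, H2B and H3 promoter matched and in 2 of 11 H4 promoters, against 39.7% of all genes. TATAAA stood in 39 of 57 members against 14.0% of all genes. CCAAT and TATAAA were also searched on both strands, and occurrences of TATAAA can overlap; ATTGG on the printed strand is CCAAT on the other. The promoters of the H2B and the H4 gene with the highest levels are shown, RefSeq on GRCh38.p14, with these letters in capitals: HIST1H2BK (minus strand, chr6:27146859-27147108) holds 1 octamer, 6 CCAAT and 3 TATAAA, and HIST1H4E (plus strand, chr6:26204360-26204609) holds none of them.
HIST1H2BK: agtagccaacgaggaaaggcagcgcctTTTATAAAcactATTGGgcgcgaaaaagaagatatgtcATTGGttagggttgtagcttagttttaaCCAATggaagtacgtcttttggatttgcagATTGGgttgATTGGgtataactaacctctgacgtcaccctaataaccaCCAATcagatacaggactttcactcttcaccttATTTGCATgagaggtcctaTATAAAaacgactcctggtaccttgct
HIST1H4E: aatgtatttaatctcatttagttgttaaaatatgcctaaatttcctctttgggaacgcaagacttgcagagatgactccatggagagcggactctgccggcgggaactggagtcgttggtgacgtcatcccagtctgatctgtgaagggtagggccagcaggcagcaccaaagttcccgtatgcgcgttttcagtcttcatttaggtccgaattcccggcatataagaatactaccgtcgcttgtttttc

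A few genes carried most of the level in H1, H3 and H4, and a smaller share of it in H2A and H2B. Per kilobase of coding sequence and averaged over the 13 libraries, the H1 family was led by HIST1H1E at 2929 CPM per kb, followed by HIST1H1B at 1217, HIST1H1C at 1164 and HIST1H1D at 419. In H2A, HIST1H2AG had 2274 CPM per kb, HIST1H2AI 1245 and HIST1H2AM 1101. In H2B, HIST1H2BK had 3449 CPM per kb, HIST2H2BE 2479 and HIST2H2BF 1437. HIST1H3C (1771), HIST1H3B (1241) and HIST1H3G (702) led H3 in CPM per kb, and HIST1H4E (1319), HIST1H4D (520) and HIST1H4C (469) led H4. Shares of the family sum were taken on mean CPM, not scaled by length. The top 3 genes held 92.6% in H1, 69.8% in H3, 64.0% in H4, 46.9% in H2B and 46.5% in H2A. These shares also depend on family size, with 4 genes tested in H1, 12 in H3, 14 in H4, 17 in H2B and 14 in H2A. Counted reads may also lie outside the coding part, where the annotated ends differ in length between members.

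At the other end, 11 members had too few counts to be tested, the highest being 12 counts in 1 library. They include HIST1H1T, HIST1H2AA, HIST1H2BA and HIST3H3, genes known for expression in testis, and 5 rows with 0 counts in every library. The 61 tested genes were 4 of H1, 14 of H2A, 17 of H2B, 12 of H3 and 14 of H4. Single values are uncertain where copies share reads: HIST1H4J and HIST1H4K, HIST2H2AA3 and HIST2H2AA4, HIST2H3A and HIST2H3C, and HIST2H4A and HIST2H4B have identical coding sequences (100%). Genes that overlap in the annotation, such as HIST1H2BN with HIST1H2AK and HIST1H2AL, could not be separated either, since the strand setting of the counting is not given in the sources used here.

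All members together took 1.36% to 1.94% of a library's counts (median 1.74%). Their summed level was 13694 and 17313 CPM in DMSO replicates 1 and 4, 16148, 18034 and 15997 CPM with F5446, 17378, 16076, 22582 and 17243 CPM with chaetocin, and 17547, 15237, 18300 and 16172 CPM with romidepsin. The groups overlapped, and the 2 DMSO libraries lay farther apart than the 3 F5446 libraries. By share of raw counts chaetocin replicate 3 was highest too, at 1.94%, with romidepsin replicate 3 next at 1.85%. The lead of chaetocin replicate 3 is larger in CPM, where its TMM factor of 0.859 enters. Group means were 15503 ± 2559 CPM (SD, n = 2) for DMSO, 16726 ± 1135 (n = 3) for F5446, 18320 ± 2901 (n = 4) for chaetocin and 16814 ± 1372 (n = 4) for romidepsin. H2B was the largest family at 31.6% to 38.5% of histone counts in 12 libraries and 44.6% in chaetocin replicate 3. H4 was the smallest in every library, at 4.92% to 8.16%. In bulk RNA a larger share of cells in S phase and more histone mRNA per such cell cannot be told apart.

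**Figure D1:**
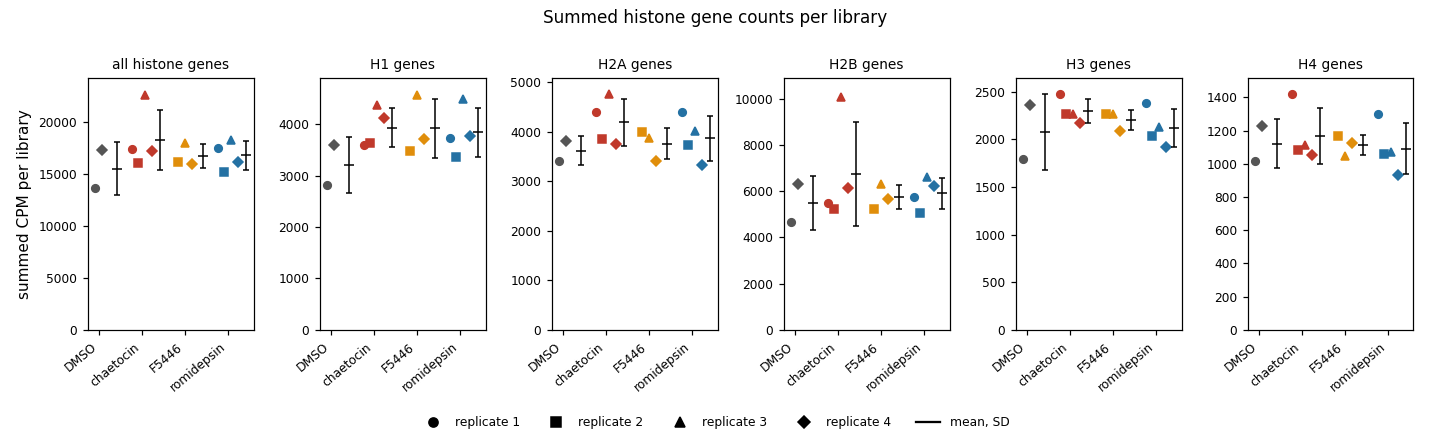
Summed CPM (y axes, starting at 0) of all histone genes and of each family, for the libraries of the 4 groups; symbols give the replicate number and black bars the mean and SD. Chaetocin replicate 3 is highest for all histone genes (22582 CPM) and for H2B (10064 CPM), and DMSO replicate 1 is lowest for all histone genes (13694 CPM). CPM are TMM-scaled. As a share of raw counts all histone genes took 1.94% in chaetocin replicate 3 and 1.85% in romidepsin replicate 3, the next highest.

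Chaetocin was set against DMSO to ask what 72 h of the methyltransferase inhibitor did to transcripts. Most histone genes had slightly higher estimates with chaetocin, and no single gene passed the test. In edgeR's quasi-likelihood test with Benjamini-Hochberg adjustment, 0 of the 61 members had an adjusted p under 0.05, and over all 17252 genes the share was 0%. The log2 fold change was above 0 in 51 of 61 members, against 51% of all genes, with a median of 0.16 against 0.01. At an unadjusted p under 0.05, 7 members were higher (2.16% of all genes were) and 1 was lower (1.91% were). Medians by family were 0.11 for H1, 0.17 for H2A, 0.16 for H2B, 0.16 for H3 and 0.17 for H4. The level of DMSO replicate 1 moved with these values: it was the lowest of the 13 libraries in 13 of 61 members and the highest in 0, whereas over all genes tested it was lowest in 5.69% and highest in 7.05%. Without it the median was 0.10 on log2, with 39 of 62 members above 0, and without DMSO replicate 4 it was 0.30, with 52 of 62 above 0, each time against 1 remaining DMSO library whose spread is taken from the other groups. Without chaetocin replicate 1 there were 42 of 61 members above 0, without chaetocin replicate 3 there were 45, and with library totals in place of TMM factors 43. The family medians rested on single libraries too. That of H2B was 0.0022 without chaetocin replicate 3, -0.02 without DMSO replicate 1 and 0.43 without DMSO replicate 4. The H1 median was -0.00083 without DMSO replicate 1 and 0.45 without DMSO replicate 4, the H4 median 0.08 without chaetocin replicate 1 and 0.09 without DMSO replicate 1, and the H3 median 0.32 without DMSO replicate 4. The H2A median was lowest without chaetocin replicate 1, at 0.11, and highest without chaetocin replicate 2, at 0.26.

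**Figure D2:**
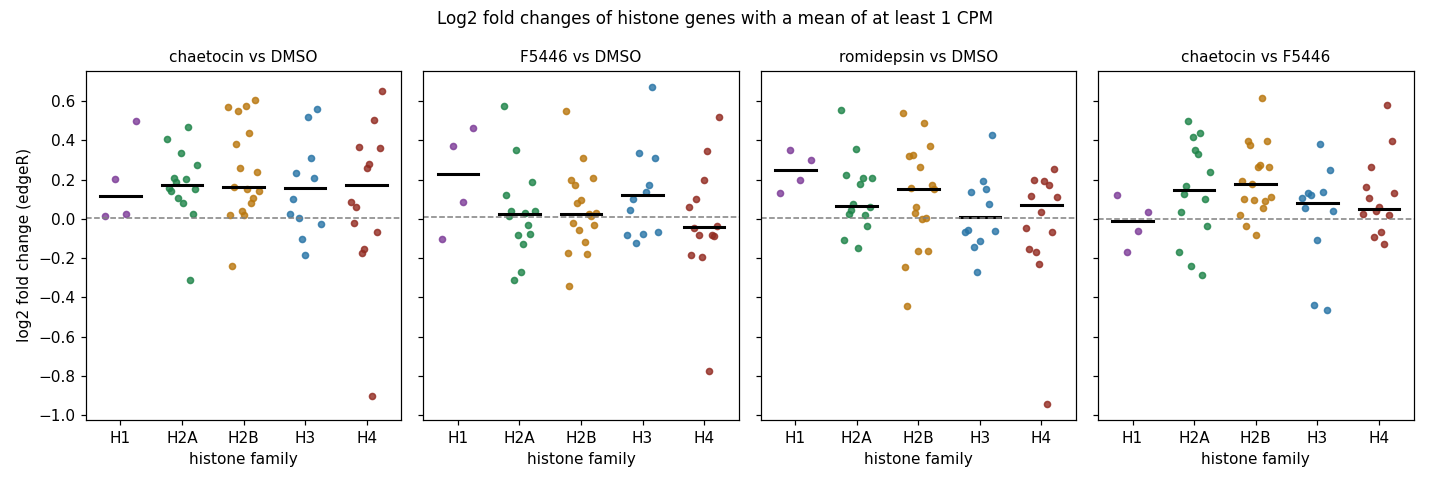
Log2 fold changes (y axis, edgeR) of the 59 members with a mean of at least 1 CPM, by histone family, in the 4 comparisons; black bars are family medians over all tested members and the dashed line is the median of all genes tested. In chaetocin against DMSO all family medians lie between 0.11 and 0.17; the 2 tested members under 1 CPM, HIST1H3J and HIST1H4F, are not drawn.

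Among linker histones, HIST1H1E was at 1207 and 1801 CPM in DMSO replicates 1 and 4 and at 1666, 1864, 2690 and 2275 CPM in chaetocin replicates 1 to 4. The ranges overlapped, with a log2 fold change of 0.50 (95% interval 0.03 to 0.97) and an edgeR adjusted p of 1. The log2 fold change was 0.24 without DMSO replicate 1 and 0.82 without DMSO replicate 4. HIST1H1B was at 859 and 772 CPM in DMSO and between 702 and 957 CPM with chaetocin, a log2 fold change of 0.02 (-0.30 to 0.33) that ran from -0.06 to 0.10 when any 1 library was left out. The difference between these 2 genes was not tested.

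HIST1H2BK, the core histone gene with the highest level, was at 868 and 1207 CPM in DMSO and at 1272, 1284, 2112 and 1507 CPM with chaetocin. All 4 chaetocin libraries lay above both DMSO libraries, by 0.57 on log2 (0.16 to 0.99, unadjusted p = 0.009, edgeR adjusted p = 1), and by 0.36 without DMSO replicate 1 and 0.38 without chaetocin replicate 3. HIST2H2BE, of the HIST2 cluster, was at 686 and 782 CPM in DMSO against 927, 799, 1765 and 975 CPM. Its log2 fold change of 0.60 (0.08 to 1.13) was 0.29 without chaetocin replicate 3. HIST1H3H was at 136 and 134 CPM in DMSO and at 249, 203, 164 and 159 CPM with chaetocin, again without overlap. Its log2 fold change was 0.52 (0.15 to 0.89), and 0.38 to 0.60 when any 1 library was left out.

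HIST4H4, the H4 gene outside the large clusters, was at 53.9 and 65.8 CPM in DMSO and at 106, 98.3, 57.7 and 114 CPM with chaetocin. The third chaetocin library fell within the DMSO range, and the log2 fold change stood at 0.65 (0.16 to 1.14, edgeR adjusted p = 1), the highest among members with a mean of 1 CPM or more. HIST1H4E, the most abundant H4 gene, had a log2 fold change of -0.17 (-0.53 to 0.18), which was -0.39 without DMSO replicate 1, -0.10 without chaetocin replicate 2 and 0.08 without DMSO replicate 4.

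The lowest estimate was that of HIST1H4K at -0.90 (-1.73 to -0.07, unadjusted p = 0.035, edgeR adjusted p = 1), and it turned on 1 library. HIST1H4K was at 3.45 CPM in DMSO replicate 1 and 8.26 CPM in DMSO replicate 4, and between 2.29 and 4.31 CPM in the other 11 libraries. Without DMSO replicate 4 the log2 fold change was -0.14 with chaetocin, -0.01 with F5446 and -0.18 with romidepsin, and without DMSO replicate 1 it was -1.39, -1.28 and -1.44. Its identical copy HIST1H4J was at 3.64 and 1.83 CPM in the DMSO libraries, the opposite order.

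HIST1H2BD showed the same dependence at a higher level. It was at 333 and 723 CPM in DMSO, and at 255, 285, 845 and 403 CPM with chaetocin. Its log2 fold change of -0.24 (-1.34 to 0.86) became 0.43 without DMSO replicate 4 and -0.75 without chaetocin replicate 3. Leaving out DMSO replicate 1 gave -0.69, and the value was -0.05 and -0.08 without chaetocin replicates 1 and 2. HIST2H2AA3 was at 6.90 and 7.63 CPM in DMSO and between 4.43 and 8.39 CPM with chaetocin, at -0.31 (-0.95 to 0.32), which was -0.54 without chaetocin replicate 1 and -0.20 without chaetocin replicate 3.

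**Figure D3:**
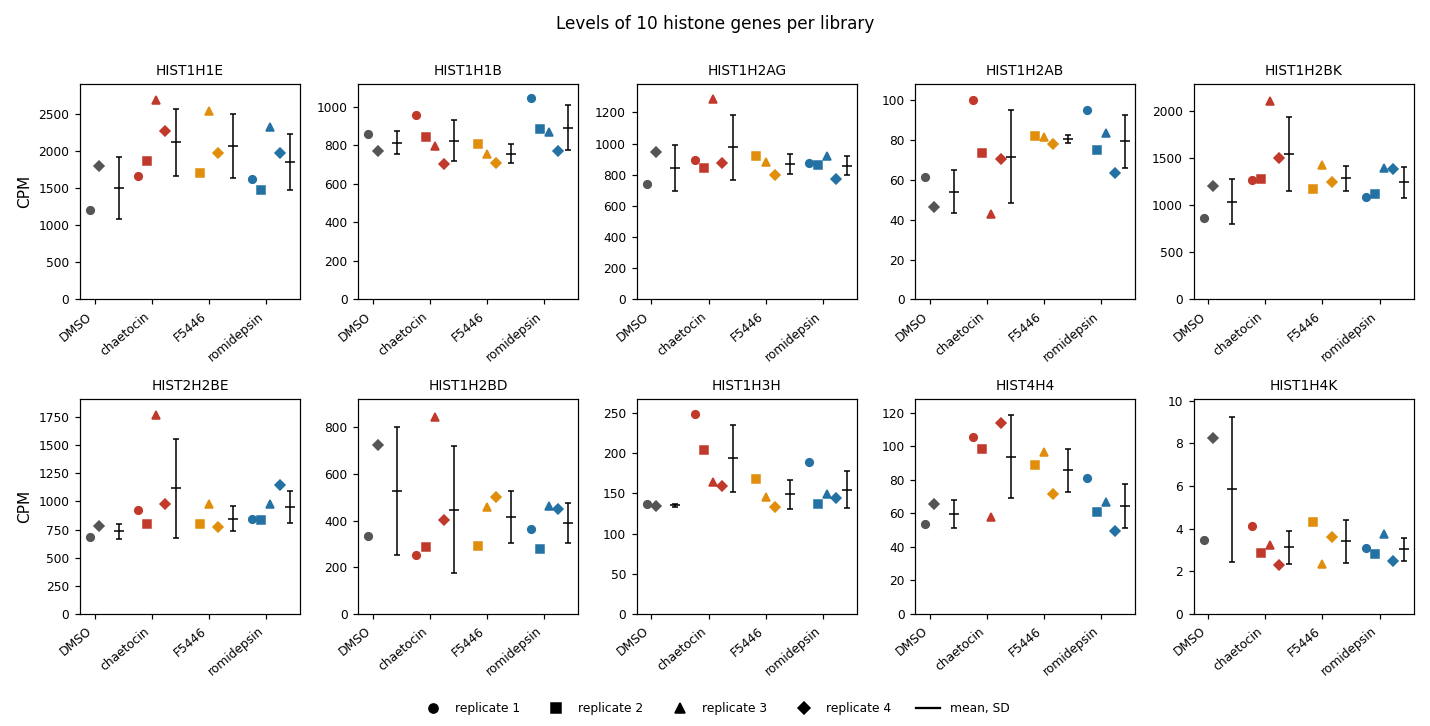
CPM (y axes, starting at 0) of 10 histone genes in each library of the 4 groups, with symbols for replicate numbers and black bars for mean and SD. HIST1H2BK and HIST1H3H have all chaetocin libraries above both DMSO libraries, whereas HIST1H2BD and HIST1H4K differ most between the 2 DMSO libraries.

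The comparison of F5446 with DMSO asks the same of the SUV39H1 inhibitor and shares its DMSO libraries with the other comparisons against vehicle. With F5446 no member passed the test, and the median of the members depended on which DMSO library was kept. With edgeR, 0 of 61 members had an adjusted p under 0.05, against 0% of all genes, and 35 of 61 log2 fold changes were above 0, against 51.2%. The median was 0.03, with family medians of 0.23 for H1, 0.02 for H2A, 0.03 for H2B, 0.12 for H3 and -0.04 for H4. At an unadjusted p under 0.05, 2 members were higher (1.51% of all genes) and 0 lower (0.968%). The median over members was 0.19 without DMSO replicate 4, with 47 of 62 above 0, and 0.0015 without DMSO replicate 1, with 31 of 62 above 0. It was 0.09 without F5446 replicate 4, 0.02 without F5446 replicate 2 and 0.01 without F5446 replicate 3. By family, the H1 median was 0.62 and the H2B median 0.26 without DMSO replicate 4, and these were 0.16 and -0.12 without DMSO replicate 1.

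These 2 were HIST1H2AB and HIST4H4. HIST1H2AB was at 61.7 and 46.4 CPM in DMSO and at 82.0, 81.5 and 78.2 CPM with F5446. The groups did not overlap, with a log2 fold change of 0.58 (0.05 to 1.10, unadjusted p = 0.034, edgeR adjusted p = 1). HIST4H4 was at 89.0, 96.5 and 71.6 CPM with F5446, above both DMSO libraries, at 0.52 (0.01 to 1.03). Further estimates above 0 were those of HIST2H3A at 0.67 (-0.30 to 1.65), at 2.62 to 5.05 CPM with F5446, of HIST1H2BB at 0.55 (-0.16 to 1.25) and of HIST1H1C at 0.37 (-0.0031 to 0.75). The estimate of HIST2H3A was 0.38 without F5446 replicate 2, that of HIST1H2BB 0.34 without DMSO replicate 1, and that of HIST1H1C 0.23 without F5446 replicate 3 and, with only 1 DMSO library kept, 0.16 (replicate 4) or 0.62 (replicate 1). Below 0 were HIST1H4K at -0.78 (-1.66 to 0.11), HIST1H2BD at -0.34 (-1.50 to 0.83) and HIST1H2AH at -0.31 (-0.79 to 0.16). The estimate of HIST1H2AH was -0.18 without F5446 replicate 4 and -0.52 without F5446 replicate 2. That of HIST1H2BD was -0.14 when F5446 replicate 2 was left out, and 0.33 or -0.80 when DMSO replicate 4 or 1 was.

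For romidepsin, at 1 µM and so at another dose than the other compounds, the question is what the deacetylase inhibitor changed against DMSO. No histone gene passed the test, and the estimates were more often above 0 than below. With edgeR, 0 of 61 members had an adjusted p under 0.05, against 0% of all genes. The log2 fold change was above 0 in 42 of 61, against 51% of all genes, with a median of 0.11. Family medians were 0.25 for H1, 0.07 for H2A, 0.15 for H2B, 0.01 for H3 and 0.07 for H4. At an unadjusted p under 0.05, 2 members were higher (1.82% of all genes) and 1 lower (1%). The median over members was 0.01 without romidepsin replicate 1 (33 of 61 above 0) and 0.03 without DMSO replicate 1 (34 of 62), against 0.21 without DMSO replicate 4 (51 of 62) and 0.16 without romidepsin replicate 4 (42 of 61). The H1 median was 0.04 without DMSO replicate 1 and 0.59 without DMSO replicate 4, the H2B median -0.01 and 0.30, and the H3 median, near 0, also changed sign with single libraries.

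The 2 higher members were HIST1H2AB and HIST1H2BE. HIST1H2AB was at 94.9, 75.2, 83.7 and 63.7 CPM with romidepsin, above both DMSO libraries by 0.56 on log2 (0.05 to 1.06, edgeR adjusted p = 1), and by 0.36 without DMSO replicate 4. HIST1H2BE was at 267, 197, 284 and 269 CPM against 195 and 212 CPM in DMSO, at 0.32 (0.01 to 0.63), with ranges that overlapped. HIST1H2BB had 0.54 (-0.13 to 1.21) and HIST1H2BM 0.49 (-0.10 to 1.07). HIST1H2BB was at 0.29 without romidepsin replicate 3 and 0.34 without DMSO replicate 1, and HIST1H2BM was at 0.30 without romidepsin replicate 1 and also without DMSO replicate 4. The lower member was HIST1H4K at -0.94 (-1.77 to -0.11), the gene with 1 high DMSO library. HIST1H2BD had -0.44 (-1.54 to 0.65) and HIST1H3F -0.27 (-1.18 to 0.64), and both turned positive without DMSO replicate 4, to 0.23 and 0.41. Without DMSO replicate 1 HIST1H2BD was at -0.90 and HIST1H3F at -0.73, and HIST1H3F was at -0.14 without romidepsin replicate 4.

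Dose and time were equal for chaetocin and F5446, and their direct comparison, the 1 pair of compounds compared, does not involve the DMSO libraries. No member passed the test between them. With edgeR, 0 of 61 members had an adjusted p under 0.05 (the smallest was 0.999), against 0% of all genes. The log2 fold change of chaetocin over F5446 was above 0 in 45 of 61, against 49.9% of all genes, with a median of 0.11. It was 0.07, with 38 of 61 above 0, without chaetocin replicate 3, 0.07, with 39 of 61, without chaetocin replicate 1, and 0.17, with 39 of 60, without F5446 replicate 2. With library totals in place of TMM factors 35 of 61 were above 0 and the median was 0.05. At an unadjusted p under 0.05, 6 members were higher with chaetocin (1.43% of all genes) and 0 lower (1.97%). The intervals of 55 of 61 members spanned 0, and for HIST1H1E, for example, the interval ran from -0.37 to 0.44 around an estimate of 0.03 that was -0.09 without chaetocin replicate 3, so the data do not show that the compounds act alike.

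By family the chaetocin over F5446 medians were -0.01 for H1, 0.15 for H2A, 0.18 for H2B, 0.08 for H3 and 0.05 for H4. The H2B median was 0.01 and the H2A median 0.07 without chaetocin replicate 3. Without chaetocin replicate 1 the H3 median turned to -0.03, and it was -0.01 without F5446 replicate 4. The H4 median was 0.01 without chaetocin replicate 1 and 0.16 without F5446 replicate 2. The H1 median, near 0, ran from -0.10 without F5446 replicate 2 to 0.06 without F5446 replicate 3. HIST1H2AM was at 459, 408, 721 and 456 CPM with chaetocin and at 396, 398 and 337 CPM with F5446. Its groups did not overlap, at 0.44 (0.12 to 0.76, unadjusted p = 0.010, edgeR adjusted p = 0.999), and at 0.23 without chaetocin replicate 3. HIST1H2BM was at 92.5, 66.9, 86.5 and 41.8 CPM against 48.2, 54.9 and 37.6 CPM, at 0.62 (0.10 to 1.13), and HIST1H2AH had 0.50 (0.10 to 0.90). In both, the ranges overlapped. HIST1H4L had 0.58 (-0.37 to 1.53), which was 0.16 without chaetocin replicate 1, 0.35 without F5446 replicate 4 and 1.06 without F5446 replicate 2. Lowest were HIST2H3A at -0.46 (-1.25 to 0.33), HIST1H3F at -0.44 (-1.25 to 0.37) and HIST2H2AA3 at -0.28 (-0.84 to 0.28), and without chaetocin replicate 3 these were -0.28, -0.19 and -0.16. HIST2H3A was at -0.18 without F5446 replicate 2, the library at 5.05 CPM, HIST1H3F at -0.28 without F5446 replicate 4 and HIST2H2AA3 at -0.51 without chaetocin replicate 1.

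Neighbouring genes give a further view, since 11 H2A and H2B pairs and 1 pair of HIST1H3J with HIST1H2BO are transcribed away from each other with 219 to 357 bases between their annotated starts. The pair of HIST1H3J is not a separate one. HIST1H3J averaged 0.31 CPM and overlaps HIST1H2AM, which is also paired with HIST1H2BO. The members of a pair did not always have like estimates. Against DMSO, chaetocin gave HIST1H2BK 0.57 and its neighbour HIST1H2AH 0.19, HIST2H2BE 0.60 and HIST2H2AC 0.15, HIST1H2BG 0.55 and HIST1H2AE 0.14, and HIST1H2BM 0.44 and HIST1H2AJ 0.34 on log2. HIST1H2BJ and HIST1H2AG had 0.02 and 0.21. The H2A gene was the higher also in HIST1H2AM with HIST1H2BO (0.47 and 0.11) and HIST3H2A with HIST3H2BB (0.28 and 0.14). It was so too in HIST1H2AC with HIST1H2BC (0.16 and 0.02), while HIST1H2BL and HIST1H2AI had 0.15 and 0.11. These further pairs are not given with libraries left out. When any 1 library was left out, HIST1H2BJ ran from -0.42 to 0.66 and HIST1H2AG from 0.04 to 0.40, while the lower estimate of the first 4 pairs ran from 0.07 to 0.31 for HIST1H2AH, 0.10 to 0.22 for HIST2H2AC, 0.06 to 0.25 for HIST1H2AE and 0.19 to 0.51 for HIST1H2AJ. The difference within a pair was not tested.

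Replicate numbers accompanied part of the variation of the histone genes across all treatments. For 4 of 61 members every library numbered 3 or 4 (7 libraries) was above every library numbered 1 or 2 (6 libraries), against 3.23% of all genes, and for 3 of 61 every one was below, against 2.25%. Without chaetocin replicate 3, chosen after seeing the data, 4 members were above, against 4.14% of all genes, and 6 were below, against 2.89%, with HIST1H4D, HIST1H2AJ and HIST1H2AH added. The mean difference was above 0 in 16 of 17 H2B genes (median log2 ratio 0.26) and in 4 of 14 H2A genes (median -0.18). It was above 0 in 3 of 4 H1, 4 of 12 H3 and 5 of 14 H4 genes. Over all genes tested it was above 0 in 8326 of 17252 (median -0.02). Without chaetocin replicate 3 it was above 0 in 14 of 17 H2B genes, with HIST1H2BM, HIST1H2BL and HIST1H2BG below 0 and a median of 0.16, and in 2 of 14 H2A genes (median -0.14). What the numbers stand for is not stated.

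The 4 higher genes were HIST1H2BD, HIST1H2BC, HIST1H2BO and HIST1H3B. HIST1H2BD ran from 255 to 366 CPM (median 288) in libraries numbered 1 or 2 and from 403 to 845 CPM (median 463) in those numbered 3 or 4, a log2 ratio of means of 0.87. HIST1H2BC ran from 319 to 408 CPM (median 383) and from 417 to 1069 CPM (median 540), at 0.71. Of the other tested genes with their stem-loop form, HIST1H2BF (0.26, and 0.04 without chaetocin replicate 3) and HIST1H3G (-0.10) overlapped. Of the 3 separated downwards HIST1H4L had the lowest ratio, from 39.8 to 87.8 CPM (median 49.5) and from 21.7 to 36.8 CPM (median 29.5), at -0.91. HIST1H2AK had -0.71 and HIST2H3D -0.52. Leaving out a library cannot undo such a separation, so leaving out chaetocin replicate 3 is no check on these 7 genes. Libraries numbered 1 or 2 were also set against DMSO replicate 1, and those numbered 3 or 4 against DMSO replicate 4. The chaetocin median over members was 0.25 for replicates 1 and 2 and 0.07 for 3 and 4, on log2 of CPM + 1. The corresponding medians were 0.18 and -0.04 for F5446 and 0.23 and -0.05 for romidepsin. For chaetocin over F5446 they were 0.05 and 0.11. Every DMSO value in these contrasts is 1 library, and F5446 among numbers 1 and 2 is also 1 library, replicate 2.

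**Figure D4:**
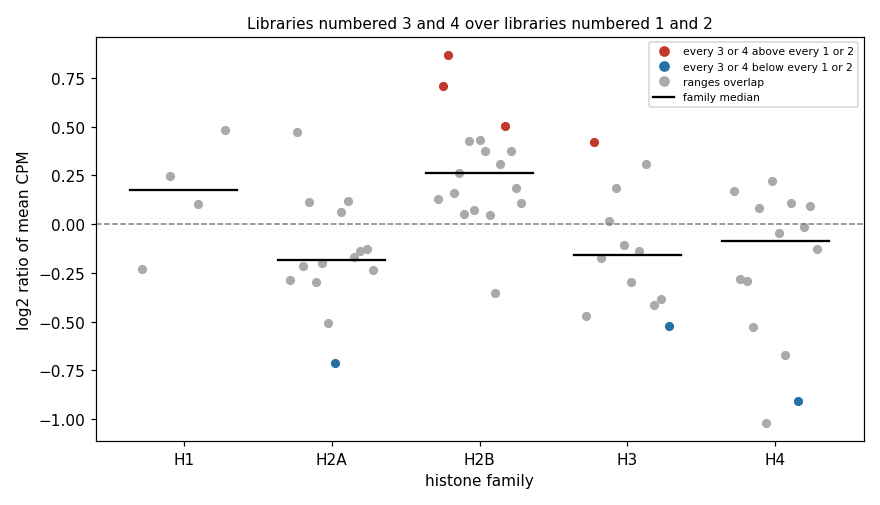
Log2 ratio of mean CPM (y axis) of the 7 libraries numbered 3 or 4 over the 6 numbered 1 or 2, 1 point per tested member, by family; colours mark members whose libraries do not overlap and black bars are family medians. In H2B 16 of 17 points lie above 0, and in H2A 4 of 14. Over all genes tested, not drawn, the ratio was above 0 in 8326 of 17252.

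Chaetocin replicate 3 was the highest of the 13 libraries in 19 of 61 members and the lowest in 7, whereas over all genes tested it was highest in 15.0% and lowest in 16.2%. In H2B 12 of 17 members lay above all other libraries and 0 below, in H2A 5 lay above and 3 below, in H3 1 above and 3 below, in H1 1 above and 1 below, and in H4 0 of 14 lay outside. These numbers are in TMM-scaled CPM and depend on the scaling, since the TMM factor of this library was 0.859. By library totals HIST1H2BD, HIST1H2BJ, HIST1H2BH, HIST1H2BG, HIST1H2AH, HIST1H1E and HIST1H3B were not highest in chaetocin replicate 3. HIST1H2BC was at 1069 CPM against 319 to 691 CPM elsewhere and HIST1H2BF at 993 against 339 to 613 CPM. HIST1H2BD was at 845 against 255 to 723 CPM, though by library totals DMSO replicate 4 was higher. Over the median of the other libraries these 3 genes were at 1.37, 1.19 and 1.14 on log2, the highest ratios of the 61 members. HIST2H2BE followed at 1.07. HIST1H3G, which has the same stem-loop form as the first 3, was at 257 CPM, inside the 185 to 365 CPM of the other libraries. The lowest were HIST1H3F at 62.9 CPM (92.3 to 232 elsewhere, -1.32) and HIST1H2AI at 225 CPM (287 to 622 elsewhere, -1.26). The part of the mitochondrial share in these values was not tested.

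**Figure D5:**
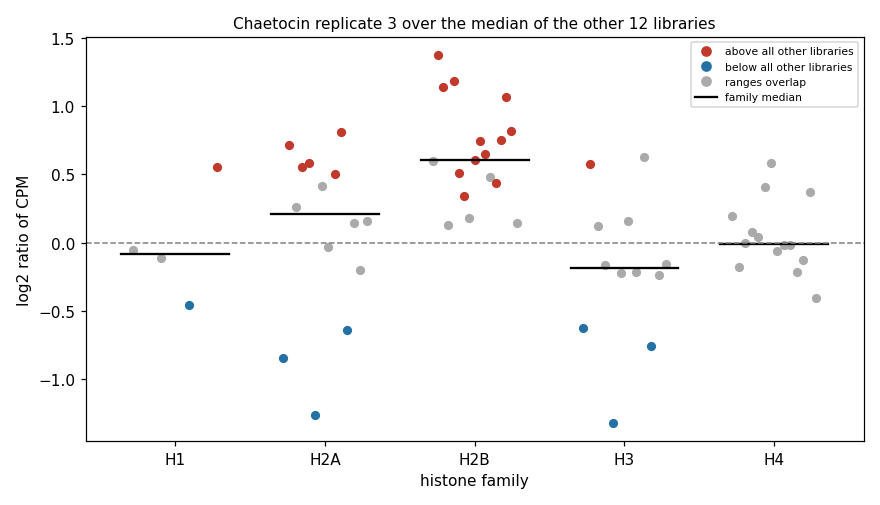
Log2 ratio of CPM in chaetocin replicate 3 over the median of the other 12 libraries (y axis), 1 point per tested member, by family; colours mark members outside the range of all other libraries and black bars are family medians. In H2B 12 of 17 members lie above every other library in TMM-scaled CPM, and in H4 none of the 14 lies outside. With library totals these numbers differ.

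Genes that make, process, store or degrade histone mRNA and protein showed no called change in any of the 4 comparisons (edgeR, adjusted p under 0.05). Of 24 tested genes of histone mRNA synthesis and processing, 18 had a log2 fold change above 0 with chaetocin against DMSO (median 0.10), 14 with F5446 (0.01) and 10 with romidepsin (-0.03). SLBP, which binds the stem-loop, was at 125 ± 9.60 CPM (SD, n = 2) in DMSO, 141 ± 11.1 (n = 3) with F5446, 144 ± 11.9 (n = 4) with chaetocin and 127 ± 8.02 (n = 4) with romidepsin. NPAT, the coactivator of histone gene transcription, was at 47.4 ± 9.32 CPM in DMSO and 48.4 ± 5.33 CPM with chaetocin. Among the 13 tested decay genes the medians were 0.15 with chaetocin, 0.07 with F5446 and -0.00056 with romidepsin. In the list of 42 DNA replication genes, 33 were above 0 with chaetocin (median 0.10), 29 with F5446 (0.05) and 25 with romidepsin (0.03). PCNA, the replication clamp, was at 189 ± 2.13 CPM in DMSO, 210 ± 12.4 with F5446, 213 ± 46.9 with chaetocin and 185 ± 29.7 with romidepsin.

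Replacement histones, which are made outside S phase too, were tested in 11 of 12 cases, with 7 above 0 with chaetocin (median 0.16), 7 with F5446 (0.15) and 5 with romidepsin (-0.0041). H2AFZ was at 733 ± 241 CPM in DMSO and 851 ± 53.7 CPM with chaetocin, and H3F3B at 347 ± 65.3 and 367 ± 35.0 CPM. Of 21 histone chaperones, 13, 9 and 9 were above 0 with chaetocin, F5446 and romidepsin. CHAF1A, a subunit of the chaperone CAF-1 that places histones on copied DNA, had the smallest p of that list against DMSO with every compound. It was at 169 and 206 CPM in DMSO, at 118 to 131 CPM with F5446, 124 to 189 CPM with chaetocin and 111 to 158 CPM with romidepsin. The F5446 and romidepsin libraries lay below both DMSO libraries, and the chaetocin libraries overlapped with them. The log2 fold changes were -0.61 (-0.98 to -0.23) with F5446, -0.36 (-0.71 to -0.01) with chaetocin and -0.44 (-0.79 to -0.09) with romidepsin, with an edgeR adjusted p of 1 in each.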

How the data were processed

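The deposited table holds raw counts per gene, whole numbers for 45744 genes in 13 libraries, and all sample columns were used. The authors used bcl2fastq 2.20.0.422, cutadapt 1.8.1 and HTSeq 0.6.1 with the build hg19, per the submitters' processing notes. The aligner, the strand and the gene annotation were not given in the sources used here. The treatment tags of the F5446 libraries end in different digits, and the titles, which all read F5446, were followed.

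Genes were filtered with edgeR's rule for sufficient counts, which kept 17252. One model with a group term covered the 13 libraries in edgeR 4.0.16 (R 4.3.3), with TMM factors and the robust quasi-likelihood test, two-sided. Adjustment was by Benjamini-Hochberg over all genes within a comparison, with a threshold of 0.05. CPM are counts per 1000000 counts of the TMM-scaled library, and intervals are at 95%. The fit was tested on simulated data. Alternatives used DESeq2 1.42.0 and limma 3.58.1, other scalings, filters and terms, and each library left out. No pair of libraries of the same group agreed within sampling noise, and pairs across groups were not checked for this.

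Members and gene lists were chosen with earlier results of these data known. Named members are the 3 most abundant per family, the 3 highest and 3 lowest log2 fold changes per comparison (mean of at least 1 CPM) and the 3 smallest p. From the context lists, SLBP, NPAT, H2AFZ, H3F3B, CHAF1A and PCNA are named. Members described for replicate numbers, for chaetocin replicate 3 and for neighbouring pairs were chosen after their values were seen. Stem-loops and coding lengths come from GENCODE v29, promoters from RefSeq, and 57 members had a promoter there. No gene coordinates of the files' build are given.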

Additional observations from a re-analysis of the deposited data

Results flagged for a closer look

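In 78 groups of 4 libraries (the family sums and shares and the named members), 8 had 1 library whose gap to the nearest other exceeded Dixon's 95% critical value, and chance flags about 1 in 20. Chaetocin replicate 3 gave 4 of these: HIST1H2AG at 1286 CPM (others 843 to 894), HIST1H2AM at 721 CPM (408 to 459), HIST2H2BF at 950 CPM (493 to 548) and, on the low side, HIST1H3F at 62.9 CPM (163 to 176). Chaetocin replicate 1 stood out for the summed H4 level at 1418 CPM (1054 to 1111). Chaetocin replicate 4 was high for HIST1H1C at 837 CPM (667 to 688), and romidepsin replicate 3 for the same gene at 967 CPM (727 to 752). Romidepsin replicate 1 was high for HIST1H2BM at 102 CPM (63.5 to 67.3).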

How the results depend on the processing

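No histone gene was called under any of the 48 alternative settings by comparison or the 24 fits without 1 library, DESeq2 and limma-voom among them. Over all genes tested, chaetocin against DMSO had 9 calls with DESeq2, 1 with limma-voom, 9 with no low-count filter, 1 with a non-robust fit and 7 with a covariate that splits replicate numbers 1 and 2 from 3 and 4. Chaetocin against F5446 had 2 with DESeq2, 9 with no filter and 5 with that covariate, romidepsin against DMSO 1, 5 and 1, and F5446 against DMSO 1 with DESeq2. With replicate number as a block the calls were 10 for chaetocin against DMSO, 11 for chaetocin against F5446 and 1 for romidepsin against DMSO. The numbers were not taken as pairing the libraries: 8 of 15 same-numbered pairs had correlated deviations above 0.1 (0.04 to 0.22), although 10 of 13 libraries correlated best with their own number, a hint from the data and not the design.

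Leaving out 1 library at a time, chaetocin against DMSO had 0 to 2 calls. Its H1 median ran from -0.00083 to 0.45 and its H2B median from -0.018 to 0.43, the lower ends without DMSO replicate 1, and without chaetocin replicate 3 the H2B median was 0.0022. The H1 medians ran from 0.13 to 0.62 for F5446 and from 0.040 (without DMSO replicate 1) to 0.59 for romidepsin against DMSO, and the H2B medians from -0.12 to 0.26 for F5446 against DMSO and from 0.0071 (without chaetocin replicate 3) to 0.27 for chaetocin against F5446. With no low-count filter the H1 median of F5446 against DMSO was 0.42, with more H1 genes tested. Directions turned without DMSO replicate 4 for HIST1H2BD, to 0.43 with chaetocin, 0.33 with F5446 and 0.23 with romidepsin (leave-one-out ranges from -0.75, -0.80 and -0.90), for HIST1H3F with romidepsin, to 0.41 (from -0.73), and for HIST1H4E with chaetocin, to 0.077 (from -0.39). Estimates near 0 turned as well. HIST1H1B with chaetocin against DMSO ran from -0.063 (without chaetocin replicate 1, and -0.058 without DMSO replicate 4) to 0.099, and was -0.028 with library totals. HIST1H2BJ ran from -0.42 (without DMSO replicate 1, and -0.17 without chaetocin replicate 3) to 0.66, and was -0.061 with library totals and -0.086 with the replicate block. HIST1H1E in chaetocin against F5446 ran from -0.090 (without chaetocin replicate 3, and -0.088 without F5446 replicate 2) to 0.21, and was -0.040 with library totals. The cause was not tested. Without a DMSO library a single one was left, assumed to vary like the other groups. Of 41 log2 fold changes of members given in the text and recomputed, 33 kept their direction in every setting run. Without chaetocin replicate 3, the members with every library numbered 3 or 4 below every one numbered 1 or 2 were 6 instead of 3. With 2 DMSO libraries, differences of the size seen here were mostly within the intervals.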
